A study of Saccharomyces cerevisiae with 48 samples.

Results

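Mitochondrial ribosomal protein genes were followed across 3 strains of Saccharomyces cerevisiae grown with and without oxygen and with and without added alcohol. The members were chosen by gene name, as the MRPL genes for proteins of the large subunit and the MRPS and RSM genes for proteins of the small subunit. No measured value entered that rule, but it was set with earlier results of these data known. This gave 54 of 6713 gene identifiers, 34 of the large subunit and 20 of the small subunit. The strains were WA, a West African isolate from bili wine that the labels call NCY3290, PAP, a mosaic strain from a rotten papaya that the labels call Y7568, and IL01, a mosaic strain from soil. Each was grown in 0.8% 1-butanol, in 1% isobutanol, in ethanol (4% with oxygen, 3% without) and in YPD, the rich glucose medium that all the alcohol cultures share. Anaerobic cultures stood in an anaerobic chamber with a stir bar and aerobic cultures were shaken, so oxygen and the way of mixing cannot be told apart. Cells were collected in growth at a low density. Each of the 24 groups has 2 replicates, which the study collected on different days, for 48 RNA-seq libraries. The strains are 3 genotypes, and a difference between them is tied to no single locus here.

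Mitochondrial ribosomes translate the few proteins encoded in mitochondrial DNA, in yeast almost all of them subunits of the respiratory chain and ATP synthase. Nearly all of their own proteins are encoded in the nucleus, made in the cytosol and imported. In glucose the mRNAs of many nuclear genes for mitochondrial proteins are bound in the 3′ untranslated region by Puf3, a Pumilio-family protein that promotes their decay and localization and reads an element of the form TGTANATA.

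That element was searched in the 150 bases after each stop codon, on the sense strand only, in the R64 genome that the deposited files use. It was present in 53 of the 54 members (98.1%), against 701 of 5937 other genes (11.8%) and 12.6% of all genes searched. The element nearest the stop codon began 8 to 139 bases after it (median 54), and 11 members had more than 1. All 34 large subunit members had it and 19 of 20 small subunit members did. The exception was RSM22 (YKL155C, chrXI:159456-161342, minus strand), for a methyltransferase-like protein of the small subunit. In a window of 100 bases 88.9% of members had it, against 9.4% of other genes, and in 250 bases 98.1%, against 14.4%. The base 2 before the element was C in 43 of 53 members with it (81.1%), against 188 of 695 other genes (27.1%). A match describes these letters and was not tested for binding. The stretches below belong to the members on which the results turn, with the 8 matched bases in capitals and 8 bases on each side:
MRPS8 (YMR158W, small subunit, chrXIII:572764-572787, plus strand): acggaccaTGTAAATAataatatt
MRPL25 (YGR076C, large subunit, chrVII:637011-637034, minus strand): tctaatcaTGTAAATAattttgtg
MRPL20 (YKR085C, large subunit, chrXI:599052-599075, minus strand): aacaatcgTGTAAATActactcta
RSM26 (YJR101W, small subunit, chrX:619114-619137, plus strand): ttatatacTGTAAATAgttttatt
MRPL37 (YBR268W, large subunit, chrII:741641-741664, plus strand): ggtatcctTGTAAATAaatatgtg
RSM7 (YJR113C, small subunit, chrX:638195-638218, minus strand): aacttgccTGTACATAaacacatt
MRPS12 (YNR036C, small subunit, chrXIV:694272-694295, minus strand): caacctttTGTAAATAgcaatgac
MRPL4 (YLR439W, large subunit, chrXII:1015470-1015493, plus strand): ctctctccTGTAAATAtatatata
The element had A at its variable base in 7 of these and C in RSM7, and a C stood directly before it or 2 bases before it in most of them, as in 51 of the 53 members with an element (96.2%) and 269 of the 695 other genes (38.7%).

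**Figure D1:**
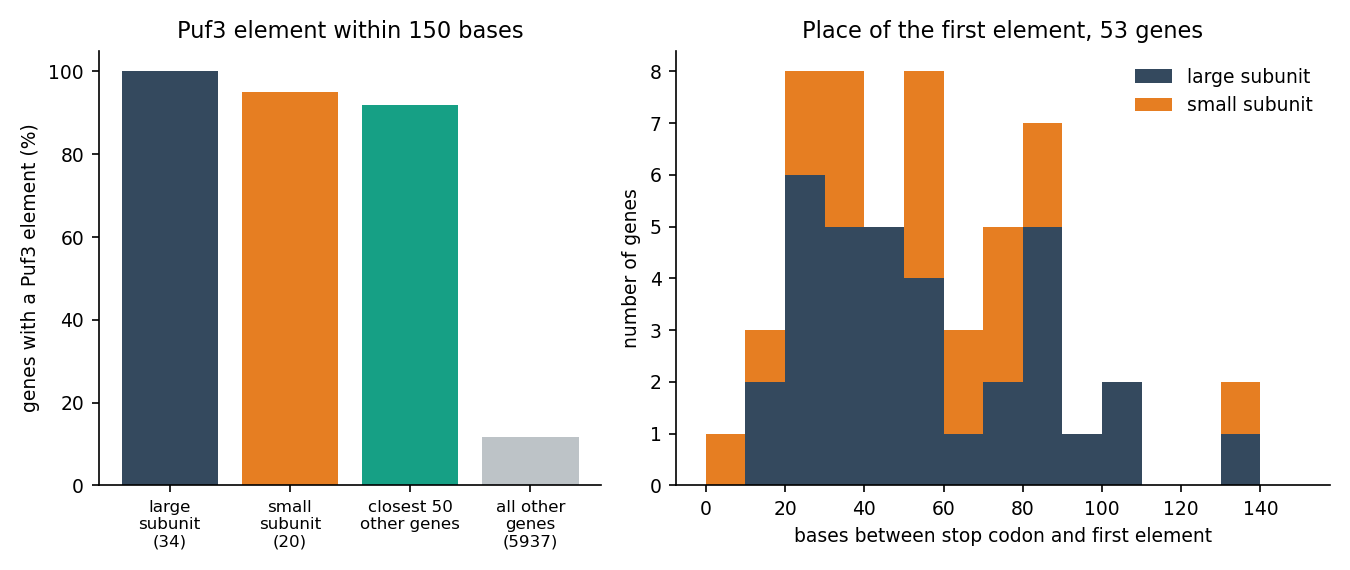
Share of genes with TGTANATA in the 150 bases after the stop codon (left, percent of genes) for large subunit members, small subunit members, the 50 other genes that follow the members most closely and all other genes, and the distance of the nearest element from the stop codon in bases (right, number of members). The shares were 100%, 95.0%, 92.0% and 11.8%, and the distances ran from 8 to 139 bases.

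The deposited values are log2 RPKM, reads scaled to the length of the gene and the depth of the library. Undoing the scaling gave 7480286 to 13938540 reads behind it per library (median 9762380.5), and 8956 to 37916 reads in the 54 members together (median 14179.5). No member was at 0 in any library, and the fewest reads behind a member's value were 33, in MRPS16. The labels for oxygen matched the data in all 48 libraries. ANB1, a gene of anaerobic cells, ran from 991 to 3228 RPKM in the 24 anaerobic libraries and from 0.454 to 30.3 RPKM in the 24 aerobic ones, and CYC1, cytochrome c, from 0 to 2.35 RPKM and from 327 to 1186 RPKM. In 4 libraries under 75% of the reads behind the scaling fell in genes whose reads could be recovered from it, the lowest at 55.57%. A difference between libraries seen only in the file itself bears on all strain comparisons: 16 libraries, replicate 2 of PAP and of IL01 in every condition, are written with more than 9 decimal places and the other 32, all WA libraries among them, with up to 9. The 16 held 10817953 to 13938540 reads behind the scaling (median 11501976), against 7480286 to 11633709 in the 32 (median 9296678.5). What the difference stands for is not given in the sources used here, and its part in the results was not tested. The main strain and oxygen comparisons are therefore given with all libraries and again without those 16, while the values per medium, the gene lists and the split by element rest on all libraries only. Within the 16 no comparison with WA is possible. Without the 16, PAP and IL01 keep no replicate pair in any group. The spread in those fits then comes from WA pairs alone, so their counts cannot be set against the full counts. Counts of called members under other normalizations, settings of the fit or sets of libraries are given without the share of all genes called there. They show how calls move with the setting, not how members differ from other genes.

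Per length, the members were of moderate level. Their means over the 48 libraries ran from 17.1 RPKM for RSM22 to 112 RPKM for MRPL39, the counterpart of bacterial L33. Among large subunit members MRPL23 followed with 84.3 RPKM and MRPL49 with 70.3 RPKM, and MRPL24, MRPL40 and MRPL27 were lowest with 21.6, 24.1 and 30.3 RPKM. Among small subunit members MRPS12, the counterpart of the decoding-centre protein S12, averaged 106 RPKM, MRPS9 86.4 RPKM and RSM26 64.7 RPKM, and MRPS17 and RSM28 stood with RSM22 at the low end with 22.0 and 22.2 RPKM. MRPL19, which overlaps YNL184C, and MRPL51, which overlaps YPR099C, share bases with another annotated gene and are uncertain.

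The members' level divided the strains with oxygen. Summed over all 54, WA had 2272 and 1637 RPKM in YPD, 1754 and 1750 RPKM in 1-butanol, 1881 and 1989 RPKM in isobutanol and 1941 and 1744 RPKM in ethanol. PAP had 2658 and 3068 RPKM in YPD, 3095 and 4051 RPKM in 1-butanol, 3226 and 3994 RPKM in isobutanol and 3672 and 4920 RPKM in ethanol. IL01 had 1855 and 2957 RPKM in YPD, 2785 and 4195 RPKM in 1-butanol, 2435 and 3619 RPKM in isobutanol and 3868 and 4579 RPKM in ethanol. WA was the lowest strain in each alcohol, and in YPD its higher library exceeded the lower IL01 library. Replicate 2 was above replicate 1 in all 8 aerobic groups of PAP and IL01. Measured against the median gene of the same library, which removes a shift common to all genes, the members stood 0.32 to 0.85 log2 units above it in the 8 WA libraries (median 0.66), 1.22 to 1.85 in the 8 PAP libraries (median 1.41) and 1.05 to 1.65 in the 8 IL01 libraries (median 1.37). On that scale the 8 WA libraries were all below the 16 others. Without oxygen the sums ran from 1703 to 2721 RPKM in WA (1703 to 2409 RPKM without its ethanol libraries), 1513 to 2464 RPKM in PAP and 1919 to 3104 RPKM in IL01, and the 3 strains overlapped.

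**Figure D2:**
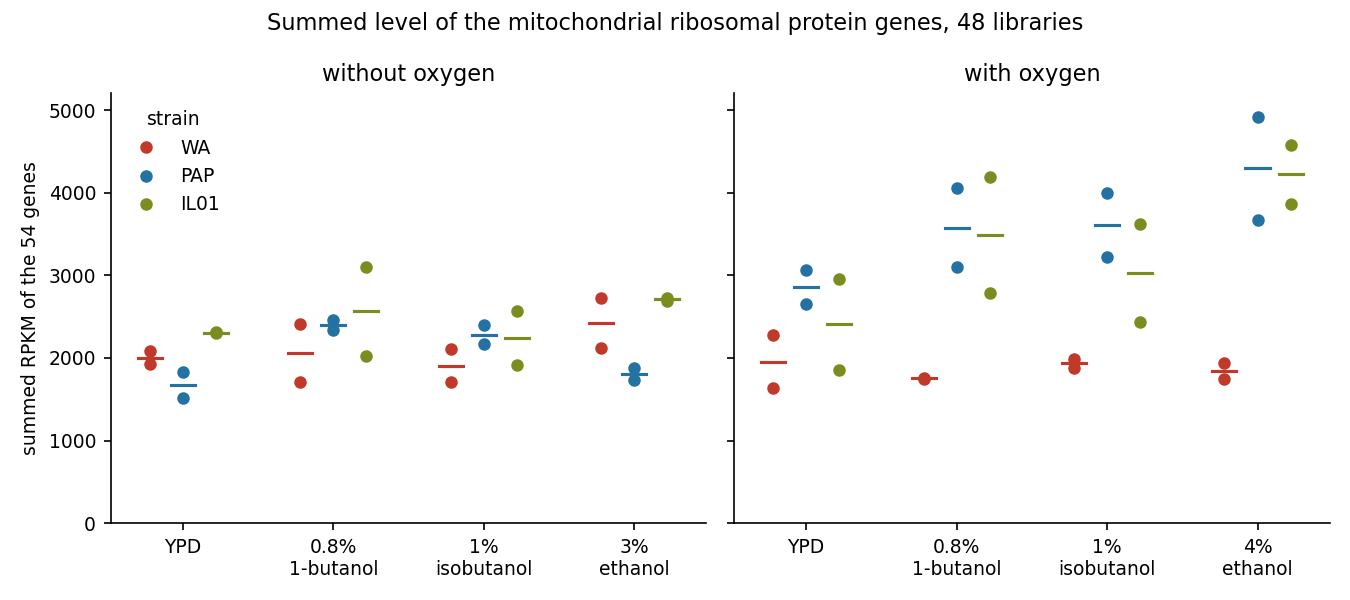
Summed RPKM of the 54 members in each library (vertical axis, RPKM, from 0), by strain and medium, without oxygen on the left and with oxygen on the right, with 1 point per replicate. With oxygen the 8 WA libraries lie between 1637 and 2272 RPKM and the PAP libraries between 2658 and 4920 RPKM, and without oxygen the strains overlap.

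To ask which members carry this difference, the level in a strain was compared with the average of the remaining strains over the 4 media with oxygen, and genes were called at FDR under 1%. In WA 51 of 54 members were lower and 0 were higher, where 21.3% of all 5615 genes tested were lower and 21.1% higher. These were 33 of 34 large and 18 of 20 small subunit members. The median member was at -0.92 on the log2 scale and the median gene at -0.05. MRPS8, the counterpart of bacterial S8, had 18.6 to 28.0 RPKM in WA (median 25.5), against 32.2 to 92.2 RPKM in the other strains (median 65.4), so that the libraries did not overlap. It averaged 25.3 ± 3.05 RPKM in WA (SD, n = 8) and 65.3 ± 16.8 RPKM in the others (SD, n = 16), a difference of -1.33 ± 0.11 (log2, SE, adjusted p = 7.95e-08). MRPL25, a large subunit protein, had 17.3 to 26.6 RPKM in WA (median 21.9), against 20.7 to 103 RPKM in the others (median 57.4), and differed by -1.27 ± 0.13 (adjusted p = 4.94e-07). MRPL20, also of the large subunit, had 28.6 to 44.6 RPKM in WA (median 36), against 49.8 to 96.8 RPKM in the others (median 72.7), without overlap, and differed by -1.02 ± 0.08 (adjusted p = 2.42e-08). All 3 were lower in WA in 8 of 8 pairs of medium and replicate. MRPL6, MRPL23, MRPL36 and MRPL49 were the other members without overlap between the strains' libraries. The share of all genes without such overlap is not given here, so this does not set the members apart. Without the 16 libraries of longer decimals the count of lower members was 26 and the median member was at -0.60, beside a median gene at 0.16. With each library centred on its median as well, the count was 48. Taken by replicate number, the median member was at -0.60 in replicates 1 (median gene 0.16) and -1.25 in replicates 2 (median gene -0.24), and 52 of 54 members were below 0 in each.

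The 3 members not called lower in WA with oxygen were RSM7, MRPS12 and MRPL4. RSM7, the counterpart of bacterial S7, had a median of 47.2 RPKM in WA, 47.4 RPKM in PAP and 36.4 RPKM in IL01, and its difference of 0.20 in WA did not pass (adjusted p = 0.117). MRPS12 had medians of 119 RPKM in WA, 130 RPKM in PAP and 94.3 RPKM in IL01, and its difference of 0.12 did not pass either (adjusted p = 0.101). MRPL4 (39.0 RPKM in WA, 47.4 RPKM in PAP and 48.8 RPKM in IL01 at the median) was at -0.29 (adjusted p = 0.021). In the libraries of these genes the strains overlapped.

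**Figure D3:**
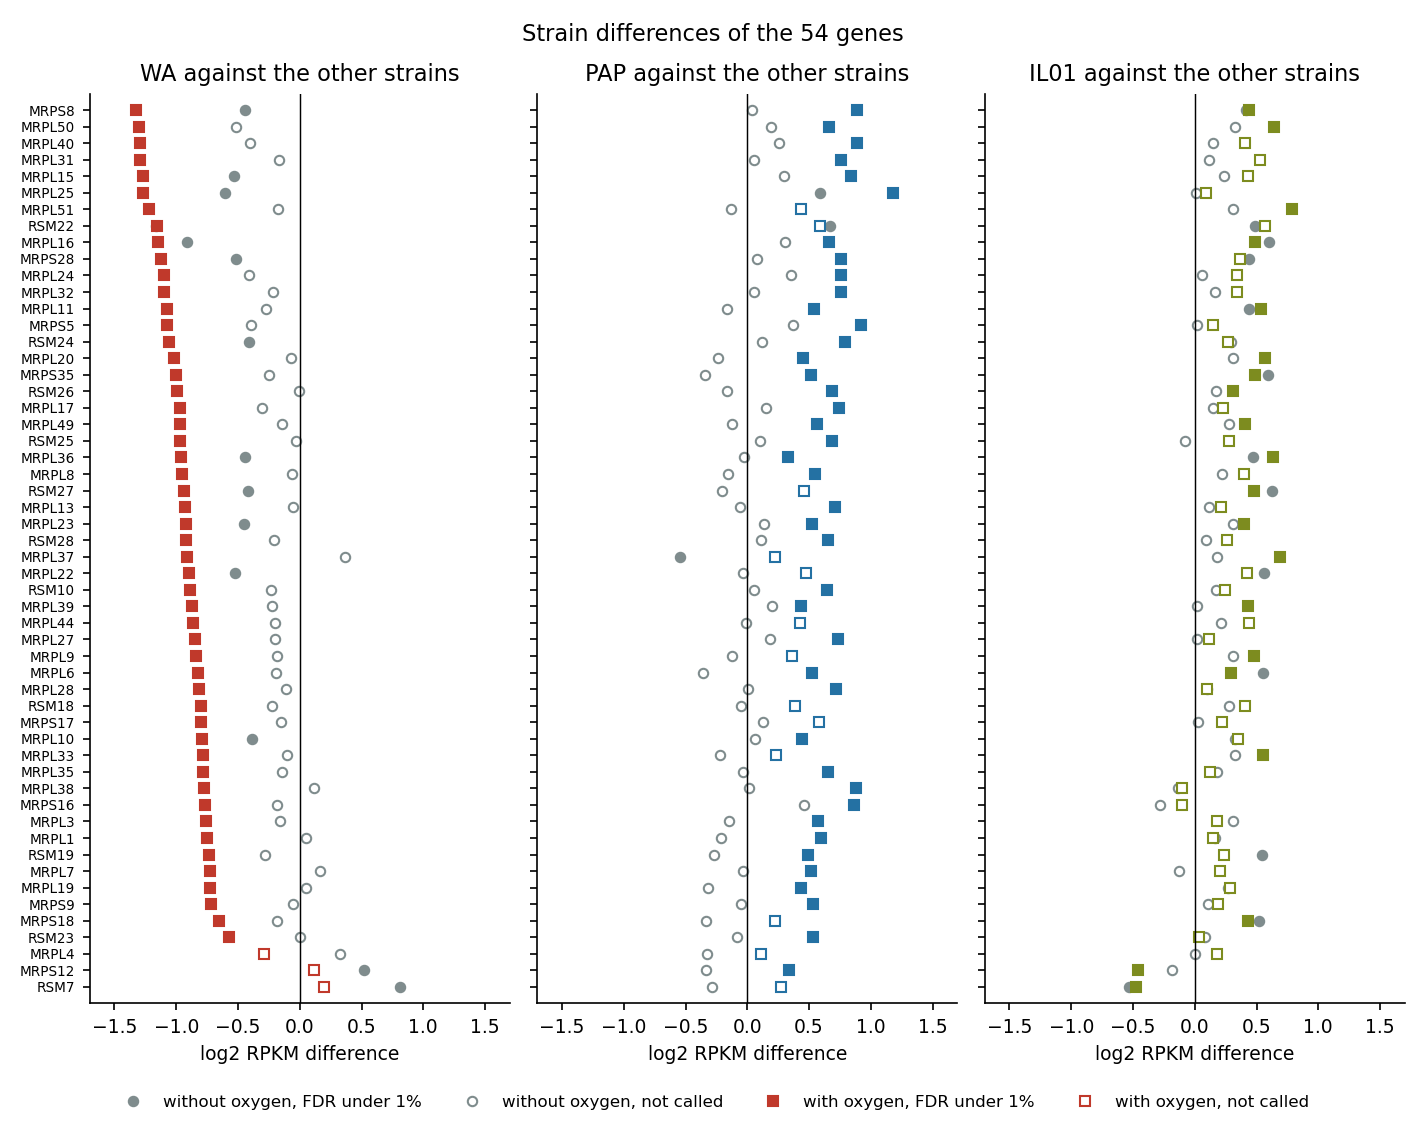
Difference of each strain from the mean of the other strains (horizontal axis, log2 RPKM) for the 54 members (rows), in 1 panel per strain, with grey circles for anaerobic cultures over YPD and the butanols, coloured squares for aerobic cultures over all media, and filled marks for FDR under 1%. In the WA panel 51 squares lie filled below 0, and the circles centre on -0.20.

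The strains were also compared within each medium, on 2 WA libraries each. In ethanol 51 members were lower in WA with a median of -1.34, where 16.6% of all genes were lower. In 1-butanol 40 were lower, with a median of -1.07 and a background of 7.27%. In isobutanol 23 were lower and MRPS12 was higher by 0.49, with a median of -0.84 with 4.9% of all genes lower and 9.21% higher. In YPD MRPS8 (-1.11) and MRPL23 (-0.81, the counterpart of bacterial L13) were lower, with a median of -0.43 and 2.32% of all genes lower. These counts are not a test of a difference between media. That test, of each alcohol's effect in WA against the other strains, passed for 0 members and is given with the alcohols.

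PAP lay above the mean of the other strains. With oxygen 41 members were higher and 0 lower, where 13.0% of genes were higher and 13.7% lower, and they comprised 27 large and 14 small subunit members. The median member was at 0.57 and the median gene at 0.08. MRPL25 had 40.5 to 103 RPKM in PAP (median 64.3), against 17.3 to 61.5 RPKM in WA and IL01 (median 25.1), a difference of 1.18 ± 0.13 (adjusted p = 1.81e-06). MRPS5, the counterpart of bacterial S5, had 24.1 to 46.2 RPKM in PAP (median 33.8), against 10.6 to 39.1 RPKM (median 16.6), and differed by 0.92 ± 0.14 (adjusted p = 6.35e-05). MRPL40, the counterpart of bacterial L24, had 23.1 to 52.1 RPKM in PAP (median 34), against 6.21 to 45.4 RPKM (median 16.9), and differed by 0.89 ± 0.19 (adjusted p = 0.00158). For each of the 3 genes the highest libraries of the other strains reached into the PAP range. The 3 strain comparisons use the same libraries, so the PAP and WA counts are not separate evidence. Without the 16 libraries of longer decimals 16 members were higher in PAP. By replicate number the median member was at 0.54 in replicates 1 and 0.63 in replicates 2, above the median genes at 0.05 and 0.10, and all 54 members were above 0 in both.

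In IL01 the members split. With oxygen 18 were higher, where 11.7% of genes were, and 2 were lower, where 14.3% were, with the median member at 0.34 and the median gene at -0.01. MRPL37, of the large subunit, had 50.2 to 111 RPKM in IL01 (median 82.0), against 30.03 to 116 RPKM in WA and PAP (median 50.7), and differed by 0.69 ± 0.10 (adjusted p = 3.32e-05). MRPL51 was at 0.78 ± 0.15 (adjusted p = 0.000679) and MRPL36, the counterpart of bacterial L31, at 0.63 ± 0.08 (adjusted p = 1.26e-05). The members lower in IL01 were RSM7, at -0.47 ± 0.10 (adjusted p = 0.00168), and MRPS12, with 76.8 to 107 RPKM in IL01 (median 94.3), against 99.1 to 159 RPKM (median 124), at -0.46 ± 0.06 (adjusted p = 9.98e-06). Without the 16 libraries of longer decimals 0 members were higher and 1 was lower. By replicate number the median member in IL01 was at 0.09 in replicates 1 and 0.57 in replicates 2, with median genes at -0.20 and 0.18. The count of 20 called members fell to 9 without replicate 2 of IL01 in aerobic YPD and stood at 34 without replicate 1 of WA in aerobic YPD.

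Between pairs of strains with oxygen, 51 members were lower in WA than in PAP and 0 higher (median -1.01, 19.7% of genes lower and 17.8% higher). In WA against IL01 49 were lower (median -0.87, 18.4% of genes lower), and MRPS12 and RSM7 were higher by 0.38 and 0.45, where 19.9% of genes were. In PAP against IL01 0 were lower, where 9.05% of genes were, and 4 were higher, where 10.2% were: MRPL25 by 0.73, MRPL38 (the counterpart of bacterial L14) by 0.66, MRPS12 by 0.53 and RSM7 by 0.50. Without the 16 libraries of longer decimals the median member was at -0.75 in WA against PAP (median gene 0.07). It was at -0.47 in WA against IL01 (median gene 0.24). In PAP against IL01 13 members were called under quantile normalization, and under median centring of all libraries 11 were higher and 1 lower.

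Without oxygen the strains were compared over YPD, 1-butanol and isobutanol, since WA in anaerobic ethanol was treated apart. In WA the members lay with the genes at large: the median member was at -0.20 and the median gene at -0.22. In WA 12 members were lower, where 27.1% of genes were, and 2 were higher, where 9.94% were. Centred on each library's median, 5 were lower and 6 higher, and leaving out single libraries gave 9 calls (without replicate 1 of WA in 1-butanol) to 20 (without replicate 2 of PAP in YPD). RSM22 had 6.29 to 9.31 RPKM in WA (median 7.76), against 11.9 to 21.3 RPKM in the other strains (median 18.1), without overlap, and differed by -1.16 ± 0.13 (adjusted p = 8.61e-07). RSM7 had 33.0 to 43.8 RPKM in WA (median 39.2), against 11.95 to 32.7 RPKM in the others (median 25.5), also without overlap, and was higher by 0.81 ± 0.14 (adjusted p = 7.88e-05). MRPL16, the counterpart of bacterial L16, was lower by 0.91 ± 0.13 (log2, adjusted p = 1.48e-05), MRPL15 was at -0.53 ± 0.12, and MRPS12 was at 0.52 ± 0.15 (adjusted p = 0.00872), a call lost in 13 of 24 fits that each left out 1 library. In PAP RSM22 (0.67) and MRPL25 (0.59) were higher, where 8.62% of genes were, and MRPL37 (-0.54) was lower, where 10.8% were. Quantile normalization and median centring each gave 2 higher and 4 lower in PAP, the 32 libraries of shorter decimals gave 9 higher and 0 lower, and MRPL37 lost its call in 9 of 24 fits without 1 library. In IL01 12 members were higher, where 20.2% of genes were, among them RSM27 with 39.9 to 66.6 RPKM in IL01 (median 45.4), against 25.8 to 39.0 RPKM (median 30.6), at 0.63 ± 0.10. RSM7 was lower in IL01 by 0.53 (log2), where 6.46% of genes were lower. The counts moved to 1 to 5 in PAP and 6 to 16 in IL01 when single libraries were left out. Over the 32 libraries of shorter decimals 1 member was higher and 14 lower in WA, and 7 were higher and 1 lower in IL01.

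Read per library, the genes that departed from the common pattern each kept a pattern of their own. RSM22, the member without the element, was low in WA in both oxygen conditions. It had 6.20 to 12.1 RPKM in aerobic WA (median 10.2), 12.2 to 37.6 RPKM in aerobic PAP (median 21.0) and 7.99 to 47.6 RPKM in aerobic IL01 (median 23.2), and its WA difference was -1.15 with oxygen and -1.16 without. In anaerobic ethanol, however, the WA libraries had 14.7 and 17.7 RPKM of RSM22, above every other WA library. The effect of ethanol on RSM22 there, set against that in the other strains, was 0.72 (log2) and did not pass. MRPS8 ran the other way, low in WA with oxygen and closer to the other strains without it: anaerobic WA had 40.5 to 50.8 RPKM over the 3 media (median 43.9) and aerobic WA 18.6 to 28.0 RPKM (median 25.5), with no overlap. RSM7 was lower without oxygen in PAP and IL01, by 0.92 and 0.51 on the log2 scale over the 3 media. In the same media anaerobic PAP had 12.5 to 32.4 RPKM (median 25.5), against 29.1 to 67.8 RPKM in aerobic PAP. Anaerobic IL01 had 11.95 to 32.7 RPKM (median 23.7), against 14.5 to 49.7 RPKM in aerobic IL01.

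**Figure D4:**
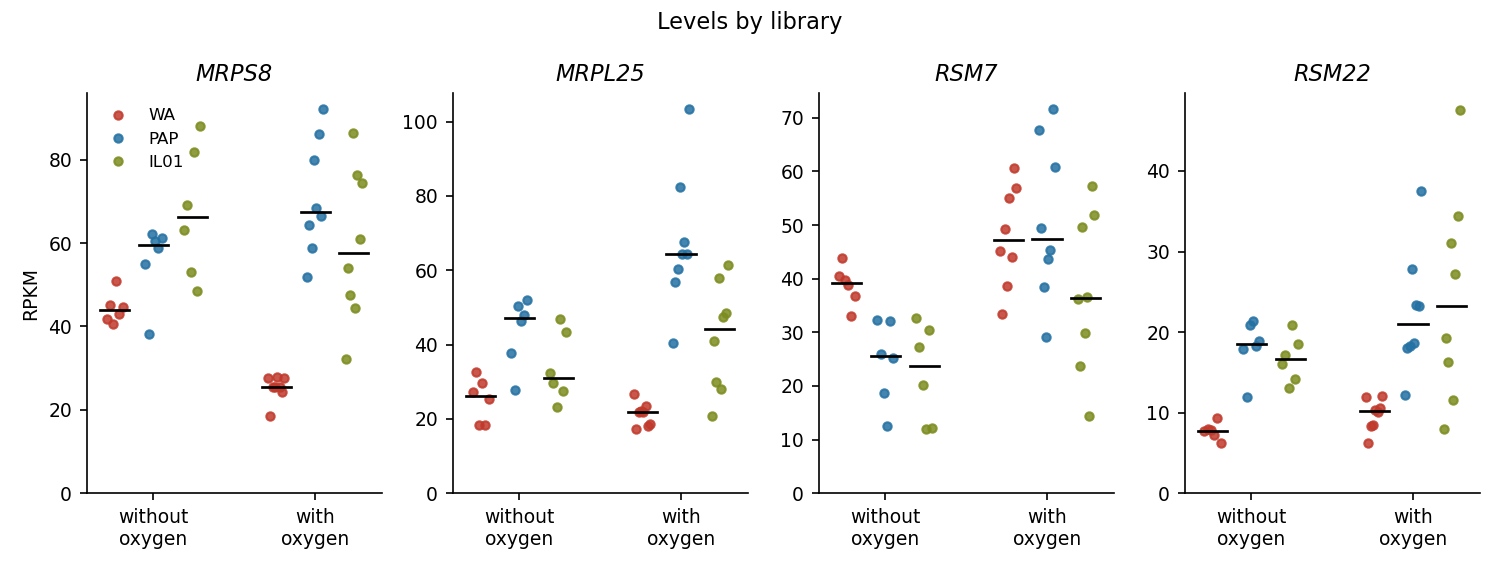
RPKM of MRPS8, MRPL25, RSM7 and RSM22 in each library (vertical axes, RPKM, from 0), by strain, without oxygen on the left of each panel and with oxygen on the right, with black bars for medians and anaerobic ethanol left out. WA lies lowest in MRPS8 with oxygen (18.6 to 28.0 RPKM) and in RSM22 without it (6.29 to 9.31 RPKM), and highest in RSM7 without oxygen (33.0 to 43.8 RPKM).

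The effect of removing oxygen was asked first in YPD over the 3 strains. Of the 54 members 7 were lower without oxygen, a share near the 14.0% of all genes that were, and 1 was higher, where 25.3% were. RSM26, a small subunit protein related to superoxide dismutases, had 26.7 to 41.6 RPKM without oxygen (median 37.2), against 55.9 to 96.2 RPKM with it (median 77.0), without overlap, and changed by -1.09 ± 0.14 (adjusted p = 5.89e-05). MRPL23 had 37.2 to 67.9 RPKM without oxygen (median 47.3), against 59.6 to 120 RPKM with it (median 99.7), at -0.91 ± 0.15 (adjusted p = 0.000383). MRPL33, the counterpart of bacterial L30, had 31.4 to 51.2 RPKM, against 52.7 to 108 RPKM, at -0.80 ± 0.17 (adjusted p = 0.00217). The groups of MRPL33 did not overlap, and those of MRPL23 did. MRPL6, MRPL36, MRPS18 and MRPL3 were lower too, by 0.54 to 0.75 log2 units. The higher member was RSM19, the counterpart of bacterial S19, with 43.8 to 77.2 RPKM without oxygen (median 61.6), against 27.5 to 66.4 RPKM with it (median 37.2), at 0.65 ± 0.17 in 5 of 6 pairs (adjusted p = 0.00762). The median member was at -0.21 while the median gene was at 0.27, and 48 of 54 members lay below the median gene. Quantile normalization moved the median gene to -0.04 and median centring to -0.08, and then 26 and 33 members were lower and 0 higher. The shares of all genes lower under these settings are not given, so these counts do not set the members apart. The count of 8 called members ran from 3 without replicate 1 of PAP in aerobic YPD to 18 without replicate 2 of WA in aerobic YPD, and RSM19 lost its call in 9 of 12 such fits. Of 24 nuclear genes of the respiratory chain 21 were lower with a median of -4.16, and of the 137 cytosolic ribosomal protein genes 131 were lower with a median of -0.92.

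The change was followed strain by strain over YPD and the butanols, media of equal dose with and without oxygen. PAP had 36 members lower and 0 higher without oxygen, where 21.2% of genes were lower and 33.1% higher, with the median member at -0.64 and the median gene at 0.18. RSM26 had 26.7 to 40.9 RPKM in anaerobic PAP (median 32.1), against 88.7 to 130 RPKM in aerobic PAP (median 104), and changed by -1.66 ± 0.12 (adjusted p = 3.08e-11). MRPL6, the counterpart of bacterial L6, had 19.9 to 35.0 RPKM (median 28.8), against 59.6 to 83.4 RPKM (median 74.95), and changed by -1.35 ± 0.13 (adjusted p = 2.12e-09). RSM28 was at -1.32, and MRPL33 and MRPL38 at -1.10 each. In IL01 18 members were lower, where 19.0% of genes were, and RSM19 was higher by 0.66, where 45.7% were, with the median member at -0.24 and the median gene at 0.42. RSM26 had 26.9 to 54.7 RPKM in anaerobic IL01, against 66.0 to 128 RPKM in aerobic IL01, at -1.22 ± 0.12. In WA 3 members were higher, where 21.7% of genes were: MRPS8 (0.83 ± 0.17), MRPL39 (0.70) and RSM19 (0.47). Another 3 were lower, where 17.8% were: MRPL33 (-0.54), RSM26 (-0.49) and MRPS18 (-0.42, the counterpart of bacterial S11). The median member of WA was at 0.05 and its median gene at 0.07. Leaving out single libraries gave 2 to 14 calls in WA and 12 to 19 in IL01. RSM26, MRPL33 and MRPS18 were lower in all 3 strains. RSM26 in WA had 29.1 to 42.4 RPKM without oxygen, against 42.9 to 58.8 RPKM with it. Without the 16 libraries of longer decimals the calls in PAP were 1 higher and 4 lower, with the median member at -0.21 and the median gene at 0.45, those in IL01 1 higher and 1 lower (0.08 and 0.67), and those in WA 4 higher and 3 lower. With each library centred on its median as well, 36, 29 and 15 members were called in PAP, IL01 and WA. Median centring of all libraries gave 49 lower in PAP, 50 lower in IL01, and 4 higher and 8 lower in WA.

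The difference between strains in the effect of oxygen was tested itself, over the same 3 media. The effect in WA was above the mean of the other strains for 17 members and below it for 0, where 3.35% of genes were above and 13.6% below, with the median member at 0.54 and the median gene at -0.24. MRPL37 had 32.6 to 64.2 RPKM in anaerobic WA against 30.03 to 54.1 RPKM in aerobic WA. In PAP it had 26.5 to 37.1 RPKM without oxygen against 46.2 to 77.9 RPKM with it, and in IL01 25.7 to 60.3 RPKM against 50.2 to 92.1 RPKM. Its effect differed in WA by 1.05 ± 0.19 (adjusted p = 0.000169). RSM26 differed by 0.95 ± 0.15 (adjusted p = 4.69e-05) and MRPS8 by 0.83 ± 0.21 (adjusted p = 0.00393). The effect in PAP was below the other strains for 9 members, and above for 0, where 3.23% and 2.16% of genes were, led by MRPL6 at -0.89 ± 0.16 (adjusted p = 0.000304), with the median member at -0.60. For IL01 no member passed in limma, 2 had an unadjusted p under 0.05, and 14.7% of genes passed at the FDR threshold. The share of all genes at the unadjusted threshold is not given here or for YPD alone below. A joint test over the strains called 15 members, where it called 20.7% of genes. Centred on library medians, 45 members differed in WA and 24 in PAP. The shares of all genes called with centring are not given, so this rise does not set the members apart. Leaving out replicate 1 of WA in aerobic YPD gave 32 and 23, and the lowest counts were 9 in WA (without replicate 2 of WA in aerobic 1-butanol) and 6 in PAP (without replicate 1 of IL01 in aerobic YPD). Without the 16 libraries of longer decimals 1 member differed in WA and 0 in PAP, and with centring as well 30 and 4. By replicate number the median member changed in WA by -0.16 in replicates 1 (median gene -0.05) and 0.31 in replicates 2 (median gene 0.20). In PAP it changed by -0.46 (0.32) and -0.87 (0.05), and in IL01 by -0.12 (0.55) and -0.42 (0.29). Within each number the members thus lay close to the median gene in WA and below it in PAP and IL01. In YPD alone, with 2 libraries per strain and condition, the joint test in limma called 0 members, 11 had an unadjusted p under 0.05, and it called 1.19% of genes. Without replicate 1 of WA in aerobic YPD it called 9.

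**Figure D5:**
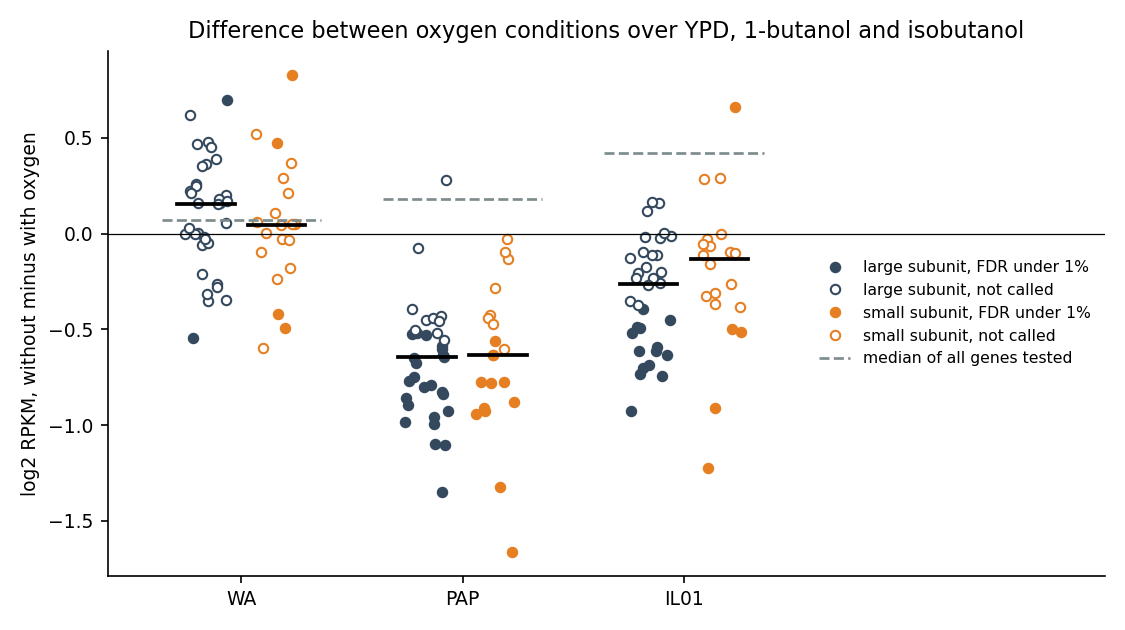
Anaerobic minus aerobic difference over YPD and the butanols (vertical axis, log2 RPKM) for each member, by strain and subunit, with medians in black and the median of all genes dashed. The median member lies at 0.05 in WA, -0.64 in PAP and -0.24 in IL01, and the dashed lines at 0.07, 0.18 and 0.42.

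Each alcohol was set against YPD within an oxygen condition. The doses differ between alcohols, so the values stand side by side without a comparison, and all of them share the YPD libraries. With oxygen 0 members passed in 1-butanol in limma (6 at an unadjusted p under 0.05, 10.6% of genes called), with the median member at 0.24 and the median gene at 0.22. In isobutanol 0 passed (6 at an unadjusted p under 0.05, 10.4% of genes called), with medians of 0.26 and 0.18. In ethanol 2 were higher, where 5.53% of genes were (6.91% in either direction), and 45 members had an unadjusted p under 0.05. The percentages are of genes called at FDR under 1%. Shares of all genes at the unadjusted threshold are not given here, so counts at that threshold do not set the members apart. RSM7 had 51.8 to 71.5 RPKM in ethanol (median 59.0), against 23.7 to 67.8 RPKM in YPD (median 40.7), at 0.56 ± 0.10 (adjusted p = 0.00579). MRPL3, of the large subunit, had 67.0 to 129 RPKM in ethanol (median 94.4), against 51.0 to 78.2 RPKM in YPD (median 63.6), at 0.54 ± 0.10 (adjusted p = 0.00709). The median member was at 0.48 and the median gene at 0.22, and all 54 members lay above the median gene. These results moved with 1 library. Over fits that each left out 1 library, the median member ran from 0.32 to 0.61 in ethanol. It ran from 0.09 to 0.43 in 1-butanol and from 0.06 to 0.43 in isobutanol. RSM7 and MRPL3 each lost the call in 9 of 12 fits without 1 library.

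By strain, the median member in aerobic ethanol was at -0.08 in WA, 0.60 in PAP and 0.92 in IL01, beside median genes at -0.05, 0.17 and 0.54. In 1-butanol it was at -0.12, 0.36 and 0.58 in the same strains (median genes 0.16, 0.26 and 0.24), and in isobutanol at 0.00, 0.39 and 0.38 (median genes 0.08, 0.18 and 0.27). Tested as a difference, the effect of each alcohol in WA against the other strains passed for 0 members in limma, and 37, 20 and 8 members had an unadjusted p under 0.05 in ethanol, 1-butanol and isobutanol. The medians were -0.90 in ethanol, -0.62 in 1-butanol and -0.43 in isobutanol. The median genes were at -0.40, -0.07 and -0.14, and 0.214%, 1.07% and 0.873% of genes passed at the FDR threshold. Shares of all genes at the unadjusted threshold are not given, so the counts at that threshold do not set the members apart. Over fits that each left out 1 library, the median member for the ethanol effect in WA ran from -1.39 to -0.42. With a replicate block per strain 18 passed in ethanol and 4 in 1-butanol, all lower in WA. The shares of all genes called with that block are not given, so these counts do not set the members apart. For the effect of the alcohols over the 3 strains that block gave 20 calls in aerobic ethanol, 4 in 1-butanol and 3 in isobutanol. That library and replicate 1 differed by 0.57 log2 units at the median member, among the wider gaps between replicates, which ran from 0.12 to 0.75.

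Without oxygen 1-butanol changed 4 members, where 27.3% of genes were called: MRPL23 (0.67, adjusted p = 0.00146), MRPS35 (0.55) and MRPL1 (0.53, the counterpart of bacterial L1) were higher and RSM7 was lower. RSM7 had 11.95 to 39.7 RPKM in 1-butanol (median 19.4), against 25.9 to 43.8 RPKM in YPD (median 32.6), at -0.66 (adjusted p = 0.00186). Among fits without 1 library MRPS35 lost its call in 8 of 12, MRPL23 in 4 and RSM7 in 3. Quantile normalization and median centring each gave 1 higher and 1 lower. The count was 1 without replicate 1 of WA in anaerobic YPD and 11 without replicate 1 of PAP in anaerobic YPD. Isobutanol changed 0 in limma (9 at an unadjusted p under 0.05, 13.9% of genes called). Ethanol in PAP and IL01 changed 0 (6 at an unadjusted p under 0.05, 3.7% of genes called), though 19 passed without replicate 1 of PAP in anaerobic YPD, and the effect of ethanol in WA differed from theirs for 0 (6 at an unadjusted p under 0.05, 4.37% of genes called). Within WA alone, ethanol against YPD called 2 members higher and 0 lower, where 9.88% of genes were called, with the median member at 0.35 and the median gene at 0.04. They were MRPL10, the counterpart of bacterial L15, at 0.97 ± 0.21 (adjusted p = 0.00305) and MRPS28, the counterpart of bacterial S15, at 0.94 ± 0.23 (adjusted p = 0.00863). In 1-butanol, isobutanol and ethanol without oxygen the median members were at 0.19, 0.11 and 0.18, and the median genes at 0.17, 0.11 and 0.03. The effect of 1-butanol differed by oxygen for 0 members in limma (2 at an unadjusted p under 0.05, 6.37% of genes called) and that of isobutanol for 0 (5 and 3.06%). Genes called are those at the FDR threshold, and shares of all genes at the unadjusted threshold are not given.

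Large and small subunit members varied together. The median large subunit member was above the median small subunit member in 48 of 48 libraries, by at most 0.53 log2 units, and over these libraries the means of the 2 subunits correlated at r = 0.986. The libraries share strains, media and depth, so this describes the set and has no test. Against the mean of the other members, a member's r had a median of 0.89, and 43 members were above 0.8, with RSM24 highest at 0.97. RSM7 (0.34), MRPS12 (0.35), RSM19 (0.49) and MRPL4 (0.58) were lowest. MRPS12 and RSM19 are neighbours on chromosome XIV. Of 5650 other genes, whose median r with the members was 0.04, 25 (0.44%) reached the members' median. MSS116, a mitochondrial RNA helicase, was closest at 0.95. Among the 50 closest, 16 were other mitochondrial ribosomal proteins, such as MRP13, MRP51 and MRP7, 26 were on a list of mitochondrial translation, and 46 (92.0%) had the element after the stop codon.

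The same split was looked for in the rest of mitochondrial translation. The counts stand beside the shares of all genes called: 21.3% lower and 21.1% higher in WA, 13.0% higher and 13.7% lower in PAP, and 11.7% higher and 14.3% lower in IL01. In WA with oxygen 21 of 23 mitochondrial ribosomal proteins outside the 54 were lower (median -0.85), 10 of 13 mitochondrial aminoacyl-tRNA synthetases (median -0.57), 8 of 10 assembly factors (median -0.61, 1 higher) and 7 of 10 translation factors (median -0.71, 1 higher). Of 15 translational activators, which promote translation of single mitochondrial mRNAs, 5 were lower and 1 higher. Nuclear respiratory chain genes had 6 of 24 lower and 6 higher, a share near that of all genes each way, and of the cytosolic ribosomal protein genes 114 of 137 were lower (median -0.37). In PAP with oxygen 22 of the 23 other mitochondrial ribosomal proteins were higher, and 13 of 13 of the synthetases, while 15 of 24 respiratory chain genes were lower (median -0.32). In IL01 16 of 24 respiratory chain genes and 95 of 137 cytosolic ribosomal protein genes were higher, and of the 23 other mitochondrial ribosomal proteins 3 were higher and 1 lower, near the shares of all genes.

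Genes outside the members were split by the element as well. Of 674 other genes with it, 34.9% were lower in WA with oxygen (median -0.23), against 18.8% of 4667 without it (median -0.03). In PAP 25.1% of those with it were higher, against 10.5% of those without. PUF3 itself was at medians of 48 RPKM in aerobic WA, 62.1 RPKM in aerobic PAP and 46.6 RPKM in aerobic IL01. It was higher in PAP by 0.42 (adjusted p = 0.00027) and lower in IL01 by 0.28 (log2, adjusted p = 0.00671), and in WA its difference of -0.14 did not pass (adjusted p = 0.12). Its part in the members' levels was not tested. In the promoters, taken as 250 bases before to 50 after the start in RefSeq's R64 table, AATTTT on either strand was found in 35.2% of members and 51.7% of all genes, and CCAAT on either strand, the letters bound by the Hap complex, in 40.7% of members and 43.2% of all genes.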

How the data were processed

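Per the labels and the paper, the authors aligned reads to R64 with BWA and counted reads with HTSeq, tools named in the submitters' processing notes. They deposited log2 RPKM, with a gene without reads at 0, and for their own tests used edgeR on counts, with FDR under 1% as threshold. The strand setting is not stated, so genes overlapping or antisense to another are uncertain. Of the table, 4 lines that name no gene were not used. All 48 columns matched a label, and 0 did not.

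The members and gene lists were chosen with earlier results of these data known. RPKM times gene length gave whole reads, within 0.01, for 6012 of 6713 genes (89.56%, all 54 members), used for depth and for voom weights as an alternative only. Log2 RPKM was fitted, for genes of a mean RPKM of 1 or more, in limma 3.58.1 (R 4.3.3) with a trend, on the deposited scale, with p-values adjusted by Benjamini and Hochberg over all genes tested. Called means FDR under 1%, and ± is the SE of a log2 difference or the SD of RPKM. Strain comparisons used the 24 libraries of their oxygen condition, and the other comparisons those of their groups. In anaerobic strain fits the ethanol libraries, those of WA among them, entered the spread but not the difference. The fits carried the replicate number of each oxygen condition as a block, since the study paired replicates by collection. Deviations of libraries with the same number correlated at medians of 0.08 with oxygen (-0.40 to 0.60, 66 pairs of groups) and 0.07 without (-0.36 to 0.74). p-values measure the spread between these libraries. Oxygen over 3 media, pairs of strains and alcohol effects by strain were added after the data were seen. Members are named if among the 3 largest changes each way with the same sign in every pair, and if in the other extremes of level or calls. Further members named were chosen after their values were seen. The fits were run on simulated data with independent noise and added changes larger than the members' changes given above. That run does not show how changes of the members' size are called. Tables and figures were made with pandas 2.3.3, numpy 2.4.6 and matplotlib 3.10.9.

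The alternatives tried were no block, a block per strain, limma without the trend, quantile normalization, median centring, no filter, log2(RPKM + 1) and log2(RPKM + 0.1), voom weights, a fit of all libraries, other sets of media, strains or libraries, and leaving out each library.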

Additional observations from a re-analysis of the deposited data

Results flagged for a closer look

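The effect of oxygen over YPD and the butanols differed between strains by a test of the difference itself. In WA it was above the mean of the other strains for 17 of 54 members, where 3.35% of genes were, with all 54 above the median gene. In PAP it was below the mean of the other strains for 9 of 54 members, where 3.23% of genes were. Over fits that each left out 1 library, the median member ran from 0.41 to 0.71 in WA and from -0.68 to -0.50 in PAP. The counts moved with single libraries and with the set of libraries, as given in the results. Libraries of the same medium or the same strain within an oxygen condition were tested for a library far from the rest. In 28 such tests, which share libraries, 0 were found, where chance alone gives about 1 in 20.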

How the results depend on the processing

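Counts of called members are given as higher plus lower. Shares of all genes called are not given for these settings, here or in the results above. Such counts show how calls move with the setting, not how members differ from other genes. Under quantile normalization and median centring the counts were 26 and 33 for oxygen in YPD, 12 and 12 for oxygen in WA, 45 and 50 in IL01, 41 and 45 for the oxygen effect of WA, 23 and 24 for that of PAP, 2 and 6 for that of IL01 and 39 and 44 for the joint test over 3 media. They were 35 and 36 for IL01 with oxygen, 13 and 12 for PAP against IL01, 2 and 2 for anaerobic 1-butanol, 4 and 2 for the 1-butanol effect of WA, 1 and 1 for its ethanol effect, and 6 and 6 for anaerobic PAP, where most calls turned to lower. Quantile normalization gave 1 for 1-butanol by oxygen. Median centring gave 11 for anaerobic WA, where most calls turned to higher, and 1 for aerobic ethanol. The oxygen effect of WA in RSM22, -0.16, was 0.062 and 0.099.

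No replicate block gave 11 for IL01 with oxygen, 1 each for aerobic and anaerobic ethanol, 10 for the oxygen effect of WA and 5 for that of PAP, and changed no other count by over 1.5 times. A replicate block per strain gave 4, 3 and 20 for aerobic 1-butanol, isobutanol and ethanol, 1 for anaerobic isobutanol, 4 and 18 for the 1-butanol and ethanol effects of WA, 15 for oxygen in WA, and 31, 27 and 34 for the oxygen effects of WA and PAP and the joint test. In YPD alone this block, and the set of 32 libraries, could not be fitted for oxygen. The numbers do not pair all groups alike, so a call lost is no weaker effect.

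A fit of all 48 libraries gave 18 for oxygen in YPD, 2 for its joint test, 25 for the joint test over 3 media, 16 for the oxygen effect of PAP, 1, 2 and 14 for aerobic 1-butanol, isobutanol and ethanol, 7, 1 and 1 for the anaerobic ones, and 1 for 1-butanol by oxygen. Without the trend 5 were called for oxygen in YPD, 3 for oxygen in WA, 2 for anaerobic 1-butanol and 0 for aerobic ethanol. No filter gave 2 for anaerobic 1-butanol, and voom weights 3 for oxygen in WA. With WA included anaerobic ethanol had 4, and with ethanol included anaerobic PAP had 10, most of them lower.

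The remaining settings were chosen after seeing the data. The set of 32 libraries holds no replicate pairs of PAP or IL01. Its spread comes from WA pairs alone, so counts from that set do not measure how firm a result is. Over the 32 libraries of shorter decimals the counts were 26 for WA, 16 for PAP and 1 (lower) for IL01 with oxygen, 9 for PAP and 8 for IL01 without it, 25 and 9 for WA against PAP and IL01, 5 and 2 for oxygen in PAP and IL01, and 1, 0 and 1 for the oxygen effects of WA and PAP and the joint test. The oxygen effects of WA in MRPS12 and MRPL25 were -0.043 and -0.066, against 0.31 and 0.47 over all libraries. With centring as well they were 23 for PAP with oxygen, 12 (most higher) for WA and 10 (most lower) for PAP without it, 15 and 29 for oxygen in WA and IL01, 30, 4 and 3 for the oxygen effects of WA, PAP and IL01, and 26 for the joint test. Without replicates 1 of IL01 in the aerobic media other than ethanol, IL01 with oxygen had 37, PAP against IL01 2 and the oxygen effect of PAP 5, and the oxygen effect of WA in RSM22 was 0.10. Without the libraries under 75% in genes anaerobic PAP had 5, the oxygen effect of WA 10 and oxygen in YPD 4.

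Leaving out each library in turn, counts ran from 3 to 18 for oxygen in YPD, 0 to 9 for its joint test, 0 to 17, 0 to 15 and 0 to 41 for aerobic 1-butanol, isobutanol and ethanol, 1 to 11, 0 to 2 and 0 to 19 for the anaerobic ones, 0 to 1 for WA in anaerobic ethanol and for each butanol by oxygen. They ran from 51 to 52, 32 to 50 and 9 to 34 for WA, PAP and IL01 with oxygen and 9 to 20, 1 to 5 and 6 to 16 without it, 2 to 14, 28 to 41 and 12 to 19 for oxygen in WA, PAP and IL01, and 9 to 32, 6 to 23 and 10 to 33 for the oxygen effects of WA and PAP and the joint test. For WA against PAP they ran from 51 to 52, for WA against IL01 from 45 to 53, for PAP against IL01 from 3 to 7 and for the ethanol effect of WA from 0 to 37. RSM22's oxygen effect in WA ran from -0.42 to 0.10. The cause of these changes was not tested. Both log2(RPKM + 1) and log2(RPKM + 0.1) kept every count within 1.5 times.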
